A study of Mus musculus with 2 samples.

Results

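The Wnt ligands, receptors and effectors are the protein-coding genes whose GENCODE M21 symbol begins with Wnt, Fzd or Rspo and a number, together with Lgr4, Lgr5, Lgr6, Lrp5, Lrp6, Axin2, Lef1, Tcf7, Tcf7l1, Tcf7l2 and Ctnnb1. By this rule there were 44 members among the 21951 protein-coding genes of the M21 gene tables: 19 Wnt ligands, 10 Frizzled receptors, 2 LRP co-receptors, 4 R-spondins, 3 LGR receptors, Ctnnb1, 4 TCF/LEF factors and Axin2. Polyadenylated RNA was sequenced from livers of healthy B6NCrl mouse embryos at 12.5 days. Livers of male and female embryos were combined, with 120 embryos in the pool of replicate 1 and 88 in that of replicate 2, and these 2 libraries form the only group. A value therefore describes a pool of animals, and there was no treatment, mutant or other stage to compare with.

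Wnt proteins are lipid-modified secreted ligands that bind a Frizzled receptor and an LRP co-receptor on the receiving cell. When the receptors are engaged, the complex that marks β-catenin for destruction is held back, and β-catenin enters the nucleus and acts with TCF/LEF factors on target genes such as Axin2. R-spondins bind LGR receptors and keep Frizzleds on the cell surface by drawing away the ligases that remove them. In the adult liver this signal is known to set the gene programme of the hepatocytes around the central vein, and in the embryonic liver it acts on growth and fate of hepatoblasts.

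Replicate 1 had 37190042 counts on Ensembl genes and replicate 2 had 34291772. The liver label was met by the marker genes: all 8 liver parenchyma markers stood above 10 TPM in both libraries, among them Afp with 5250 and 5065 TPM and Alb with 870 and 885 TPM. Red cell markers held far more RNA, with 8 of 8 above 10 TPM and a sum of 164215 and 167046 TPM, and endothelium (8 of 8) and stellate and mesenchyme markers (10 of 10) all reached 1 TPM. In such a mixed tissue, fewer cells of a type and less RNA per cell cannot be told apart. One set of markers set the libraries apart: 7 of 8 skeletal muscle markers were called higher in replicate 2 by the rule given with the comparison of the libraries, and the list summed to 43.3 TPM in replicate 1 and 64.2 TPM in replicate 2. Myog, a regulator of muscle differentiation, had 0.90 and 4.10 TPM in replicates 1 and 2.

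Levels are given in TPM, which divides each count by effective transcript length and the library total and so allows one gene to be set beside another. A mean of 1 TPM over the 2 libraries was reached by 20 of the 44 members, 45.5%, against 54.5% of protein-coding genes. A mean of 10 TPM was reached by 4 members, 9.09%, against 32.1% of protein-coding genes, and the median member stood at 0.615 TPM against 1.87 TPM. Of these 4, Lrp6 was under 10 TPM with M4, the other deposited annotation, and over protein-coding transcripts alone, as given below. Most of the summed level of the members belonged to a single gene: Ctnnb1 held 58.8% of it in replicate 1 and 57.7% in replicate 2. Ranked by mean level, the members made 43 neighbouring pairs, and in 12 of them the ranges of the 2 libraries were apart. From Ctnnb1 down to Tcf7, the ninth, each gene was above the next in both libraries, whereas from Tcf7 through Fzd2, Fzd4, Fzd5, Wnt11 and Lgr5 to Lrp5 each neighbour overlapped the next.

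**Figure D1:**
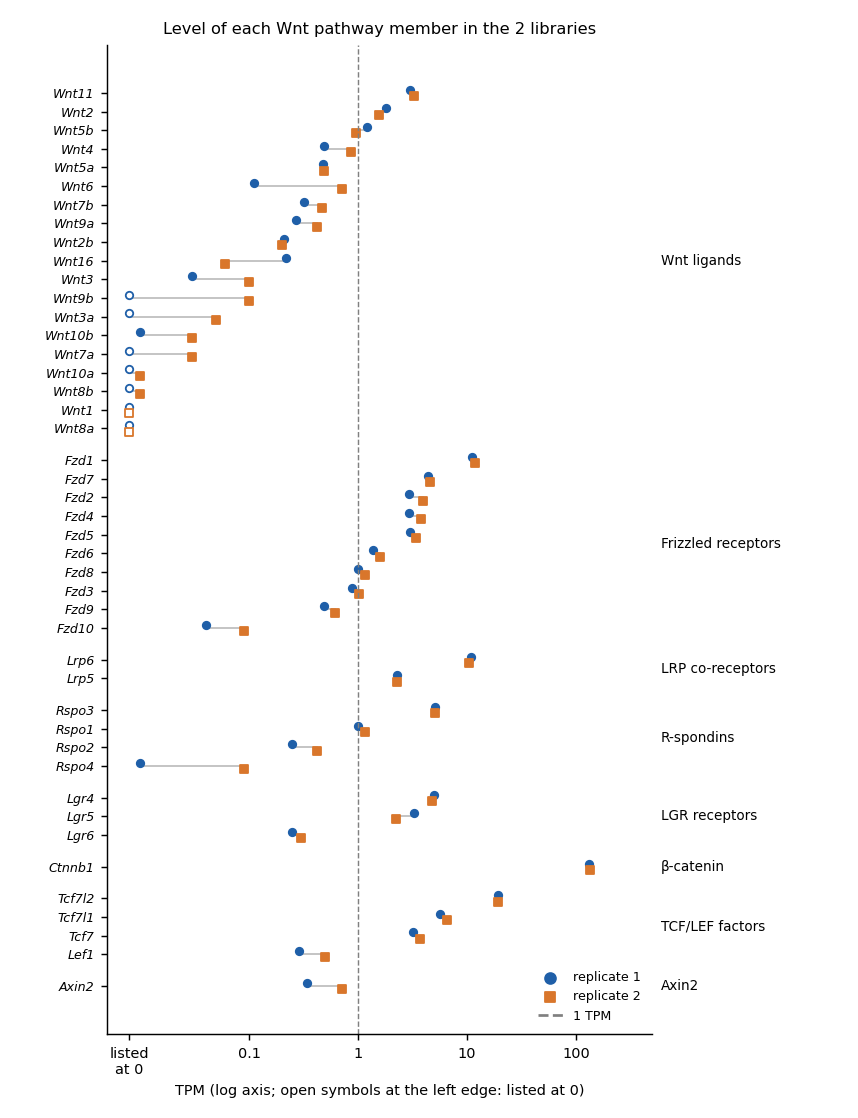
TPM of each of the 44 members in replicate 1 (blue circles) and replicate 2 (orange squares) on a log axis, grouped by role and ordered by mean level, with a dashed line at 1 TPM. Ctnnb1 stood at 133 and 134 TPM, whereas 16 of the 19 Wnt ligands lay left of the line by their mean.

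The ligands were low. Together the 19 Wnt genes summed to 8.19 TPM in replicate 1 and 9.35 TPM in replicate 2 (8.77 ± 0.82, mean ± SD, n = 2), and 3 of them reached a mean of 1 TPM. Wnt11, a ligand best known for signalling without β-catenin, led at 3.03 TPM in replicate 1 and 3.30 TPM in replicate 2, which was 37.0% and 35.3% of the summed level. Wnt2, which vascular cells of the liver are known to secrete, had 1.80 TPM in replicate 1, against 1.55 TPM in replicate 2. Wnt5b, another ligand usually placed outside the β-catenin branch, was at 1.22 TPM in replicate 1 and 0.95 TPM in replicate 2. These 3 genes kept this order in both libraries and their ranges did not overlap.

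The other 16 Wnt genes averaged between 0 and 0.675 TPM, with Wnt4 at the top of that range at 0.49 TPM in replicate 1 and 0.86 TPM in replicate 2. Wnt9b, which the endothelium of the adult central vein is known to make, had 0 counts in replicate 1 and 14 in replicate 2. After scaling, its 14 counts in replicate 2 stood 5.05-fold above a limit of 3 counts in replicate 1. This ratio leaves out the counting error of the 14 counts and is not a lower bound. The exact interval for its log2 ratio of replicate 1 over replicate 2, described below, ended at -1.84 on the side nearest 0. Wnt9b stayed under the count minimum for the comparison of libraries. No read was assigned to Wnt1 or Wnt8a in either library, which allows up to 3 counts, or 0.0807 CPM in replicate 1 and 0.0875 CPM in replicate 2 (CPM is the count scaled to the library total). Wnt9b was one of 5 members, all Wnt genes, with 0 counts in replicate 1 alone. The others, Wnt3a, Wnt7a, Wnt10a and Wnt8b, had 4, 3, 1 and 1 counts in replicate 2. These were too few to set the libraries apart by the interval described below. The share of all genes with 0 counts in replicate 1 alone was not computed.

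Several Wnt genes lie close together in the genome, in 4 neighbouring pairs. Wnt9a and Wnt3a stood apart in counts in both libraries, and Wnt6 and Wnt10a in replicate 2 only. On chromosome 1, 6193 bases separate Wnt6 from Wnt10a, and Wnt6 had 4 and 30 counts in replicates 1 and 2 where Wnt10a had 0 and 1. In replicate 1 the exact 95% Poisson intervals of these counts overlapped, 1.09 to 10.2 for Wnt6 and 0 to 3.69 for Wnt10a. On chromosome 11, Wnt9a had 28 counts in replicate 1 and 41 in replicate 2, and Wnt3a, 16175 bases away, had 0 and 4. Wnt3, which lies 24328 bases from Wnt9b on the same chromosome, had 3 counts in replicate 1 and 9 in replicate 2, so its range lay within the 0 and 14 counts of Wnt9b. Wnt10b, 11706 bases from Wnt1 on chromosome 15, had 1 count in each library beside the 0 of Wnt1, a difference within counting error.

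The R-spondins were carried by a single gene. Rspo3, which vessels and mesenchyme of the liver are known to express, had 5.11 and 5.07 TPM in replicates 1 and 2, or 80.3% and 75.2% of the class. Rspo1 had 0.99 TPM in replicate 1, against 1.16 TPM in replicate 2, well under Rspo3 in both libraries. Rspo2 and Rspo4 averaged 0.335 and 0.050 TPM. Rspo3 was above every Wnt gene in both libraries.

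Receptors were more abundant than ligands. The 10 Frizzled genes, which encode the receptors for Wnt proteins, summed to 28.2 TPM in replicate 1 and 31.9 TPM in replicate 2 (30.0 ± 2.66, mean ± SD, n = 2), and 7 reached a mean of 1 TPM. Fzd1 led with 11.1 TPM in replicate 1 and 11.8 TPM in replicate 2, 39.3% and 36.9% of the class, and Fzd7 followed with 4.41 and 4.55 TPM. Their ranges were apart from each other and from those of the other Frizzleds.

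Fzd2, Fzd4 and Fzd5 formed a group whose ranges overlapped. Fzd2 was at 2.94 TPM in replicate 1 and 3.91 TPM in replicate 2, and Fzd4, which also binds the non-Wnt ligand norrin, had 2.93 and 3.75 TPM. Fzd5 had 3.03 and 3.43 TPM in replicates 1 and 2. Below them, Fzd6 had 1.36 and 1.59 TPM and Fzd8 had 1.01 and 1.17 TPM in replicates 1 and 2. Fzd3, Fzd9 and Fzd10 averaged under 1 TPM, down to 0.065 TPM for Fzd10. All 10 Frizzled genes had a higher TPM in replicate 2, but the scaled count ratio described below was on the side of replicate 1 for Fzd5, and with scaling by spike-ins also for Fzd1 and Fzd7.

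Both co-receptors were detected. Lrp6 had 10.97 TPM in replicate 1, against 10.54 TPM in replicate 2, and Lrp5 had 2.26 TPM in each, so Lrp6 held 82.9% and 82.3% of their sum. Lrp6 was also the single member whose level differed between the annotations past 1.5-fold, as described below. Among the LGR receptors, which bind R-spondins, Lgr4 was at 5.03 TPM in replicate 1 and 4.81 TPM in replicate 2. Lgr5, a marker of stem cells and of pericentral hepatocytes in adults, had 3.26 and 2.23 TPM in replicates 1 and 2, and Lgr6 averaged 0.275 TPM. Lgr4 stood above Lgr5 in both libraries.

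β-catenin dominated the effectors. Ctnnb1, which encodes it, had 133 TPM in replicate 1, against 134 TPM in replicate 2, higher than 95.8% and 96.0% of protein-coding genes. Because β-catenin also binds cadherins at cell junctions and its amount in signalling is set by protein breakdown, this RNA level does not measure the signal. Exons of 10 members overlap a gene on the opposite strand, and the use of strand is not stated, so reads of such pairs may be divided wrongly. The largest partner was Ulk4, at the 3′ end of Ctnnb1, with 992 counts in replicate 1 and 899 in replicate 2, against 11065 and 10121 for Ctnnb1.

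Of the TCF/LEF factors, which bring β-catenin to DNA, Tcf7l2 was the highest, with 19.3 TPM in replicate 1 and 19.2 TPM in replicate 2, 67.9% and 64.2% of the class. Tcf7l1, often a repressor of Wnt targets, was at 5.66 TPM in replicate 1 and 6.50 TPM in replicate 2. Tcf7, abundant in T cell development, had 3.17 and 3.71 TPM. The ranges of these 3 factors did not overlap. Lef1 was the lowest of the class, with 0.29 TPM in replicate 1 and 0.50 TPM in replicate 2.

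Axin2, both a feedback inhibitor and a widely used readout of β-catenin signalling, was low, with 0.34 TPM in replicate 1 and 0.71 TPM in replicate 2. These levels rested on 34 counts (exact 95% Poisson interval 23.5 to 47.5) in replicate 1 and 48 counts (35.4 to 63.6) in replicate 2, and the intervals overlapped. For Lef1 the counts were 31.1 in replicate 1 and 45.5 in replicate 2, with intervals of 21.1 to 44.0 and 32.8 to 60.2, which also overlapped.

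The pools were then compared with each other by the count ratio of replicate 1 over replicate 2, scaled by TMM. A gene was called where it had a mean of 10 counts, a ratio past 2-fold and an exact 95% binomial interval that excluded the scaled split of the counts. This compares 2 libraries, not conditions. Of the 44 members 32 had enough counts, and 1 of them, Wnt6, was called, against 1.71% of the 14251 protein-coding genes tested. The call was in the direction of replicate 2, where the background was 1.11%, and no member was called in the direction of replicate 1, where it was 0.603%. Among protein-coding genes with a mean under 100 counts, as for Wnt6, 8.10% were called.

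Wnt6, a ligand known from surface epithelium and the developing kidney, had 4 counts (interval 1.09 to 10.2) and 0.11 TPM in replicate 1, against 30 counts (20.2 to 42.8) and 0.72 TPM in replicate 2. The intervals did not overlap, and the log2 ratio was -2.87 (exact 95% interval -4.99 to -1.52), which is 7.29-fold higher in replicate 2. Its protein-coding transcript held 0.03 TPM in replicate 1 and 0.34 TPM in replicate 2, and a retained intron model held the other 72.7% and 52.8% of its TPM. Beside it, the skeletal muscle markers differed in the same direction, as given above. Of 6 surface ectoderm markers Krt5 was called in that direction, with 0.07 TPM in replicate 1 and 0.32 TPM in replicate 2, while the list summed to 7.76 TPM in replicate 1 and 8.03 TPM in replicate 2. Of 8 nephric and urogenital markers Ret was called in the other direction, with 0.38 TPM in replicate 1 and 0.01 TPM in replicate 2, and their sums were 4.26 and 4.21 TPM. The part of these markers in the Wnt6 result was not tested.

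The remaining 31 tested members stayed within 2-fold. The interval excluded the scaled split for 10 of the 32 at any fold, against 24.2% of protein-coding genes. Of these members 8 lay toward replicate 2 (Fzd2, Fzd4, Fzd6, Lgr6, Rspo2, Wnt4, Wnt5a and Wnt6) and 2 toward replicate 1 (Lgr5 and Lrp6). The share over all genes was not divided by direction for this rule, so the 8 and 2 have no background. Some barely passed: the bound nearest 0 was 0.01 for Lrp6, -0.03 for Wnt5a and -0.04 for Rspo2. Fzd4 had 634 counts in replicate 1 and 750 in replicate 2, a log2 ratio of -0.35 (interval -0.51 to -0.20). Lgr5 had 409 counts in replicate 1 and 309 in replicate 2, a log2 ratio of 0.29 (interval 0.08 to 0.51). The log2 ratio was below 0 in 23 of the 32 members, whose median was -0.20, against 49.2% of protein-coding genes, whose median was 0.00. Scaling by spike-ins shifts all ratios by a constant: it moved the median gene to 0.12, and 18 of the 32 members were then below 0 with a median of -0.08. With a minimum of 50 counts 23 members were tested, 15 of them were below 0, and their median was -0.07, against 0.00 for protein-coding genes. The share of genes below 0 was not computed with spike-in scaling or with this minimum.

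**Figure D2:**
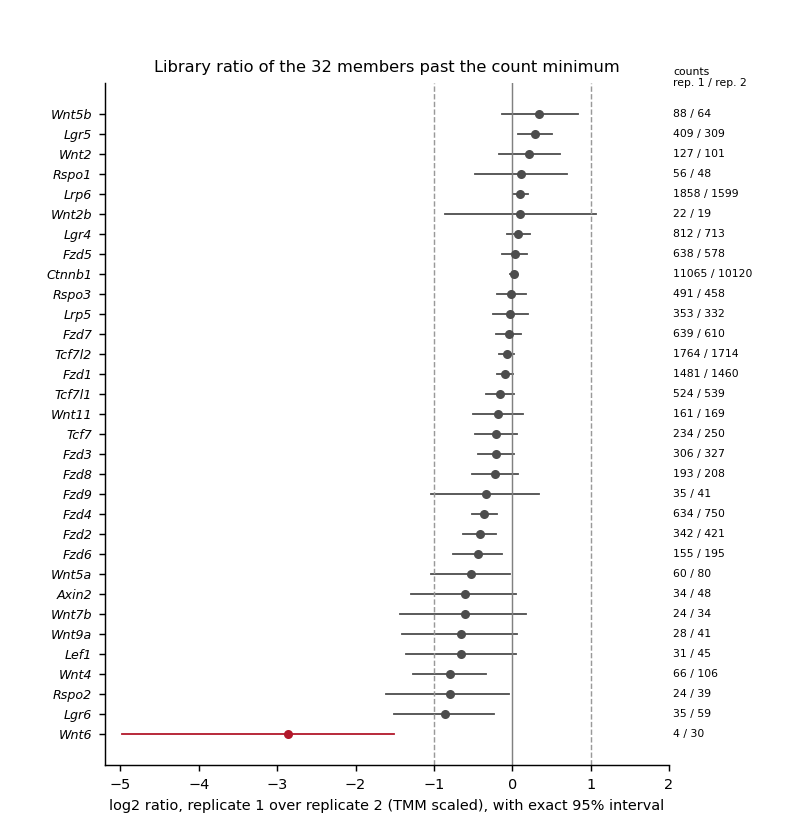
Log2 ratio of replicate 1 over replicate 2 with its exact 95% interval for the 32 members with a mean of at least 10 counts, with the counts of replicate 1 and replicate 2 at the right and dashed lines at 2-fold. Wnt6, in red, at -2.87 is the only one past a dashed line, and the intervals widen as counts fall.

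The division of reads among annotated transcripts gave part of some gene levels to transcripts not of the protein-coding type. This division is an estimate of the quantification. Where models share most of their bases, it does not show which RNA was present. Of the 20 members at 1 TPM, 14 had more than 1 annotated transcript, 13 of these had the same leading transcript in both libraries, and 4 had at least 2 transcripts at 10% of the gene in each. In 3 members, Ctnnb1, Lrp6 and Wnt11, transcripts of the protein-coding type held under 70% of the TPM on average. Counting protein-coding transcripts alone, an alternative chosen after seeing the data, 18 members reached 1 TPM.

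Among members at 1 TPM, Wnt11 had the lowest share on protein-coding transcripts in each library, but the libraries divided its reads differently. Transcripts that the annotation marks for nonsense-mediated decay, the breakdown of RNAs with an early stop, held 89.1% of its TPM in replicate 1 and 48.3% in replicate 2. Protein-coding transcripts held 0.33 TPM in replicate 1 and 1.63 TPM in replicate 2. Wnt11-202, a decay transcript, was the leading one in replicate 1 with 60.6%, against 39.8% in replicate 2. Wnt11-205, with a coding sequence of 1062 bases, held 9.93% in replicate 1 and led in replicate 2 with 47.4%.

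The libraries thus named different leading transcripts of Wnt11, yet 83.9% of the bases of Wnt11-202 are shared with Wnt11-205, and the gene had 161 counts in replicate 1 and 169 in replicate 2. The authors' deposited bounds for Wnt11-205 were 0.00 to 1.01 TPM in replicate 1 and 0.64 to 2.21 TPM in replicate 2, which overlap. By protein-coding transcripts alone Wnt2, which has a single annotated transcript, was the leading ligand, with 34.7% of the summed coding level of the Wnt genes in replicate 1 and 21.8% in replicate 2. In replicate 2 the coding level of Wnt11, 1.63 TPM, was above that of Wnt2, 1.55 TPM, and in replicate 1 it was below, 0.33 against 1.80 TPM.

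In Ctnnb1, the transcript Ctnnb1-201, with 2343 coding bases, held 57.6% of the TPM in replicate 1 and 56.2% in replicate 2. Ctnnb1-215, a single-exon model of the retained intron type, held 34.8% and 35.6%. It is 1292 bases long at chr9:120959216-120960507 (mm10), and 92.8% of its bases also belong to Ctnnb1-201. Exons of Ulk4 on the opposite strand lie over 475 bases of Ctnnb1-215 and 759 bases of Ctnnb1-201. By counts Ctnnb1-215 had 1803 in replicate 1 and 1727 in replicate 2, against 8809 and 8051 for Ctnnb1-201. The M4 annotation has no Ctnnb1-215, and there Ctnnb1-201 held 41.2% in replicate 1 and 45.5% in replicate 2, while Ctnnb1-214, whose bases all lie in Ctnnb1-201, held 53.0% and 49.3%. The gene level was 133 and 134 TPM under M21, against 115 and 114 TPM under M4, which is within 1.5-fold.

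Lrp6 was the 1 member of 21 tested whose gene level differed between annotations past 1.5-fold in both libraries, against 4.88% of 12120 protein-coding genes. It had 10.97 and 10.54 TPM in replicates 1 and 2 under M21, against 6.85 and 6.47 TPM under M4. The difference, as log2 of TPM + 1, was 0.61 in replicate 1 and 0.63 in replicate 2. Lrp6-201, the full-length coding transcript, was close under both, at 5.59 and 5.15 TPM with M21 and 5.81 and 5.35 TPM with M4. Lrp6-205, a single-exon model of 941 bases of which 63 lie in Lrp6-201, is in M21 only and held 4.07 TPM in replicate 1 and 3.97 TPM in replicate 2 from 112 and 101 counts. A short model turns few reads into a high TPM, and the 1693 and 1444 counts of Lrp6-201 gave a level not much higher. By coding transcripts Lrp6 had 6.58 TPM in replicate 1, against 6.22 TPM in replicate 2.

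**Figure D3:**
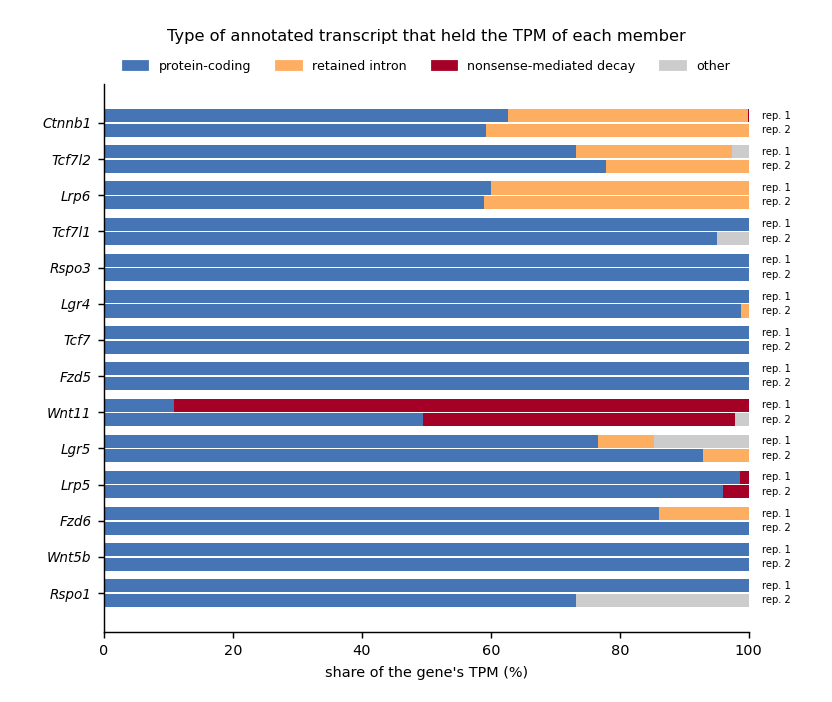
Share of the TPM of each gene held by protein-coding, retained intron, nonsense-mediated decay and other transcripts, for the 14 members at 1 TPM with more than 1 annotated transcript, with replicate 1 above replicate 2. Retained intron models hold 37.2% and 40.8% of Ctnnb1 and 40.0% and 41.0% of Lrp6 in replicates 1 and 2, and Wnt11 shows decay transcripts at 89.1% in replicate 1 and 48.3% in replicate 2.

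The TCF/LEF factors are known for isoforms with and without the part that binds β-catenin. In Tcf7l2 the transcript Tcf7l2-209, with 1377 coding bases, held 56.3% in replicate 1 and 64.8% in replicate 2, and Tcf7l2-206, of the retained intron type, held 13.7% and 10.1%. Tcf7l1-201 held 90.5% in replicate 1 and 87.7% in replicate 2. Tcf7 had 2 annotated transcripts: Tcf7-201 held 84.2% in replicate 1 and 80.1% in replicate 2, and Tcf7-202 held 15.8% and 19.9%. Both have the same coding start and 909 coding bases, so these shares say nothing of Tcf7 forms that differ at the start of the protein. In Lef1 the libraries gave the reads to different transcripts, Lef1-202 with 93.1% in replicate 1 and 0% in replicate 2, and Lef1-204 with 0% and 84.0%. These share 98.8% of the bases of Lef1-202 and the same start, and transcripts from that start together held 93.1% in replicate 1 and 84.0% in replicate 2.

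Axin2 was divided over several transcripts as well. Axin2-201, with 2520 coding bases, held 55.9% in replicate 1 and 21.4% in replicate 2, and Axin2-203, a transcript with no coding sequence, held 32.4% and 37.1%. Of the bases of Axin2-203, 98.3% also belong to Axin2-201, and it had 7 counts in replicate 1 and 15.5 in replicate 2. Fzd5-201 held 90.8% in replicate 1 and 69.1% in replicate 2, and Fzd6-201 held 84.6% and 71.7%. The shares of Axin2 rest on 34 and 48 counts, those of Fzd5 and Fzd6 on at least 155 in each library. The division of Fzd6 depended on the annotation all the same. Under M4 Fzd6-202 led, with 50.8% in replicate 1 and 80.4% in replicate 2, against 49.2% and 19.6% for Fzd6-201.

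The promoters of Axin2, Lef1 and Wnt11 are shown because Axin2 and Lef1 are themselves known targets of the pathway, and because Wnt11, the leading ligand, has more than one start. Each line holds the 250 bases before a start site from RefSeq on GRCm38.p6, the assembly called mm10, with matches to the TCF/LEF core CTTTG in capitals on either strand, and a longer match where one was found. They are Axin2 at chr11:108920099-108920348, Lef1 at chr3:131110073-131110322, and the upstream and downstream starts of Wnt11 at chr7:98834862-98835111 and chr7:98838595-98838844, all on the plus strand.
Axin2: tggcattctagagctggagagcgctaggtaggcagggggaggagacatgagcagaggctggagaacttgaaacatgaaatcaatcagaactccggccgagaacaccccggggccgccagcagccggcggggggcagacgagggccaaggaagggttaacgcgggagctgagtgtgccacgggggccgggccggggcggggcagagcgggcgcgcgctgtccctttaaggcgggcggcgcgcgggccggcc
Lef1: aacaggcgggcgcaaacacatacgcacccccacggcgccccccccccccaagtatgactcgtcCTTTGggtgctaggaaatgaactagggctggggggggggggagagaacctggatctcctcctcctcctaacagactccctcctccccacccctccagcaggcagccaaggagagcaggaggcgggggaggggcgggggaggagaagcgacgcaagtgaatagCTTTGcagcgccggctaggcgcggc
Wnt11 upstream start: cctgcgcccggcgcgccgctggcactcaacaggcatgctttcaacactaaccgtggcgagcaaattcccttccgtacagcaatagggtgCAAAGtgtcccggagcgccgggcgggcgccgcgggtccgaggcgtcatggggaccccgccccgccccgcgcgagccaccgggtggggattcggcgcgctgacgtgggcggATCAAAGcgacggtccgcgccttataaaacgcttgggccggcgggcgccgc
Wnt11 downstream start: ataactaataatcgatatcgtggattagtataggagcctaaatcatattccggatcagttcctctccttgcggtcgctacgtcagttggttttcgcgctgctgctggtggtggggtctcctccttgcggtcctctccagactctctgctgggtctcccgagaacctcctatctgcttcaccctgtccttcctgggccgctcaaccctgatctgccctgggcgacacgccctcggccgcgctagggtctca
The longer form was searched on both strands as CTTTG with A or T at each of the next 2 positions, so that every longer match contains the core. Among the 4 sequences it was found once, as ATCAAAG 51 bases before the upstream start of Wnt11. The core alone was found at 187 and 25 bases before the start in Lef1 and at 161 bases before the upstream start of Wnt11. Lef1 has other RefSeq starts, whose windows are not shown. The longer form was present in that before chr3:131156294, as TACAAAG 147 bases before the start. This start lies 42480 bases from the nearest start group of the annotation.

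The RefSeq promoters covered 31 of the 44 members with 40 start sites. The longer form was present in 5 of the 40, 12.5%, against 14.8% of all 32851 promoters of the same length, and the core in 17, 42.5%, against 48.6%. The members' promoters had a median GC content of 69.4%, against 52.4% overall. Transcripts from the upstream start of Wnt11 held 61.6% of its TPM in replicate 1 and 41.9% in replicate 2, those from the downstream start 9.93% and 47.4%, and those from another start, 53 bases beyond the downstream one, 28.5% and 8.51%. The downstream start and this one together held 38.4% in replicate 1 and 55.9% in replicate 2, so the swing between them was larger than that of their sum. The Lef1 window that is shown ends 148 bases before the start that the annotation uses. A match describes the letters only, and their absence from a window says nothing of a factor acting elsewhere.

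The other genes of the pathway ranged from 0 counts to above the level of Ctnnb1. The 9 pathway lists held 88 genes, 86 of them outside the members, of which 66 (76.7%) reached a mean of 1 TPM, against 54.5% of protein-coding genes, and 34 (39.5%) a mean of 10 TPM, against 32.1%. The other 20 stayed under 1 TPM. Of the 86, 81 had enough counts and 3 were called between the libraries, all toward replicate 2. That is 3.70% of those tested, where the background was 1.71% over all protein-coding genes and 8.10% over those under 100 counts, as all 3 were.

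Both genes of Wnt secretion were present. Wls, the carrier that takes Wnt proteins to the cell surface, was at 12.1 TPM in replicate 1 and 11.9 TPM in replicate 2, and Porcn, the enzyme that attaches their lipid, had 1.19 and 0.98 TPM. Wls alone was thus above the sum of all 19 Wnt genes in each library.

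Of 13 secreted antagonists 6 reached 1 TPM. Sfrp1, a decoy that binds Wnt proteins, had 11.8 and 12.6 TPM in replicates 1 and 2, Sfrp2 had 9.18 and 11.2 TPM, and Dkk3 had 6.13 and 6.23 TPM. Sost, which blocks LRP co-receptors, averaged 0.080 TPM, and Dkk4 had 0 counts in both libraries. The summed antagonists, 35.3 TPM in replicate 1 and 37.5 TPM in replicate 2, exceeded the summed ligands in each library.

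Of 5 genes for receptor turnover and Dkk receptors 3 reached 1 TPM. The ligases Rnf43 and Znrf3, which remove Frizzleds from the cell surface, had 5.79 and 4.54 TPM in replicate 1 and 4.45 and 4.22 TPM in replicate 2. Kremen1 had 2.04 TPM in replicate 1, against 2.60 TPM in replicate 2. Kremen2 and Apcdd1 were called toward replicate 2: Kremen2 had 9 counts in replicate 1 and 28 in replicate 2, and Apcdd1 had 18 and 35. Both lay under 1 TPM.

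Of 15 alternative Wnt receptors and planar polarity genes 11 reached 1 TPM, none was called, and Gpc3, a glypican of foetal liver, led with 233 TPM in replicate 1 and 232 TPM in replicate 2. Vangl1, a planar polarity gene, had 64.0 and 59.0 TPM and the pseudokinase Ptk7 had 14.8 and 14.1 TPM in replicates 1 and 2. Celsr1 and Celsr3, cadherins of planar polarity, averaged 0.150 and 0.120 TPM.

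All 3 Dishevelled genes, whose products relay the signal from Frizzled, reached 1 TPM, and their ranges were apart. Dvl2 was at 11.3 TPM in replicate 1 and 11.4 TPM in replicate 2, Dvl1 had 8.99 and 10.1 TPM, and Dvl3 had 6.72 and 7.37 TPM. Of the 14 genes of the destruction complex, which marks β-catenin for breakdown, 13 reached 1 TPM and 10 reached 10 TPM. The kinase genes Csnk1a1 and Csnk1d had 105 and 51.2 TPM in replicate 1 and 103 and 48.8 TPM in replicate 2, and Btrc, the ubiquitin ligase subunit, had 41.2 and 40.9 TPM. Apc2, a relative of Apc, averaged 0.160 TPM.

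Of 17 nuclear partners and repressors 16 reached 1 TPM. The co-repressor genes Ctbp1, with 234 TPM in replicate 1 and 247 TPM in replicate 2, and Aes, with 227 and 220 TPM, stood above Ctnnb1 in both libraries. The histone deacetylase gene Hdac1 had 122 and 117 TPM in replicates 1 and 2, below it. Pygo1, a co-activator, averaged 0.345 TPM.

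Of 14 feedback and general target genes 10 reached 1 TPM. Myc had 119 TPM in replicate 1, against 113 TPM in replicate 2, Ccnd1 had 38.6 and 39.4 TPM, and Cd44 had 15.0 and 15.5 TPM. All 3 respond to many signals, in blood cells too. Among the feedback inhibitors, Nkd1 had 3.62 and 4.63 TPM in replicates 1 and 2 and Dkk1 had 2.99 and 2.46 TPM, whereas Notum averaged 0.290 TPM. The target gene Sp5 averaged 0.450 TPM. Nkd2 was called toward replicate 2, with 21 counts in replicate 1 and 41 in replicate 2, as was Apcdd1, which is in this list too.

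Of 11 adult pericentral target genes 7 reached 1 TPM, with Lgr5 and Axin2 among the 11. Glul, the glutamine synthetase of hepatocytes beside the central vein, was at 89.3 TPM in replicate 1 and 83.6 TPM in replicate 2, Oat had 81.3 and 78.9 TPM, and Gulo had 53.4 and 48.4 TPM. The adult pericentral cytochromes Cyp2e1 and Cyp1a2 had 2.07 and 1 counts in replicate 1 and 0 in replicate 2. The list thus held genes above 50 TPM beside genes at the limit of detection.

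**Figure D4:**
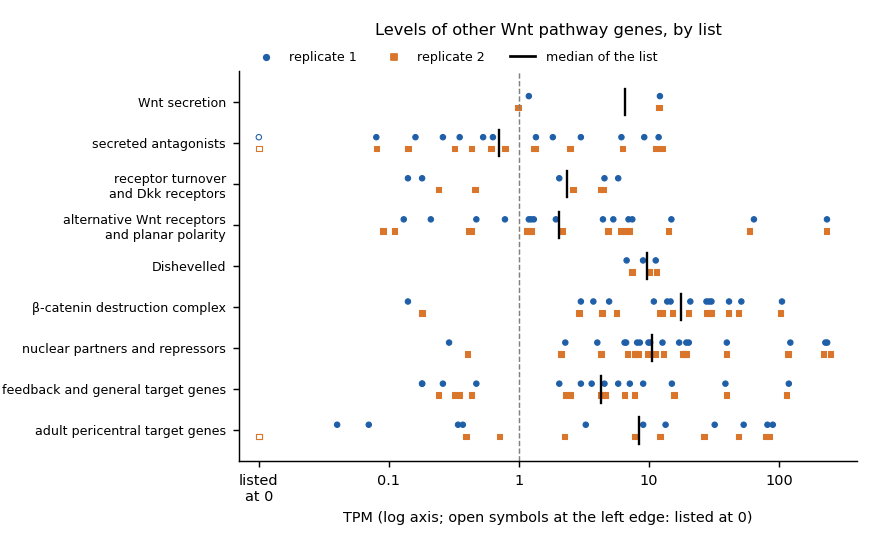
TPM of each gene of the 9 pathway lists in replicate 1 (blue circles, above) and replicate 2 (orange squares, below) on a log axis, with the list median as a black bar and a dashed line at 1 TPM. The destruction complex has the highest median, 17.7 TPM, and the secreted antagonists the lowest, 0.705 TPM.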

How the data were processed

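The authors deposited gene and transcript tables for each of the 2 libraries under GENCODE M21 and M4. Expected counts, per the file headers, are what the quantification assigned to each gene or transcript, not always whole. The deposited TPM values rest on those counts, effective length and a total that includes spike-ins (4.99% and 5.40% of TPM). The deposited posterior means and TPM bounds describe the uncertainty of that division, and the level of the bounds is not stated. For aligner, quantifier and use of strand nothing is stated (not given in the sources used here); the notes deposited with each library name mm10. Per the labels, 10 ng of RNA with ERCC spike-ins was amplified from oligo-dT and tagmented. M21 was used unless M4 is named.

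Counts were scaled with TMM (edgeR 4.0.16, R 4.3.3) over Ensembl genes, and DESeq2 1.42.0 size factors were an alternative. Log2 ratios used a prior count of 0.5, and intervals used counts rounded to whole numbers; intervals and floors of 3 counts cover counting error only. Annotations were compared on log2(TPM + 1) for genes at 1 TPM under either. Starts within 50 bases were grouped. Calculations ran in Python 3.11.15 with scipy 1.17.1 and were tested on simulated data. With 1 group no p-values were computed. The labels call the libraries biological replicates.

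Members and lists were chosen with earlier results of these data known. Values in both libraries are given for members at 1 TPM, the highest of each family, those with 0 counts in both libraries and called members, and for the 3 highest, up to 2 under 1 TPM and each called gene of a list. Some other members, list genes and transcripts were named after their values were seen. The 8 nephric and 6 surface ectoderm markers were also chosen after values were seen. Of the other marker lists, mesothelium had 6 of 7 genes at 1 TPM and 0 called, and gut, stomach, pancreas and lung had 1 of 8 and 0 called. The neural list had 2 of 8 genes at 1 TPM, and its comparison between the libraries is not reported here.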

Additional observations from a re-analysis of the deposited data

How the results depend on the processing

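The number of members at 1 TPM was 20 and moved to 22 with posterior mean TPM, 21 with GENCODE M4 or with TPM rescaled over Ensembl genes, 19 to 20 with a library left out, and 18 over protein-coding transcripts. Thresholds of 0.5 and 2 TPM gave 24 and 15. Wnt11 led the ligands and Fzd1 the Frizzleds in each of these, except that over protein-coding transcripts Wnt2 led with 27.3% of the summed ligand level; that setting was chosen after seeing the data. Genes of the pathway lists at 1 TPM, counted once per list, were 71 and ranged between 70 and 73.

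Wnt6 remained the single member called between the libraries with DESeq2 size factors, spike-in totals, total counts, M4 and a prior count of 5. With no count minimum 2 of 42 members were called, Wnt6 and Wnt9b, and 400 of 17253 protein-coding genes (2.32%) in place of 244. With a minimum of 50 counts 0 of 23 members and 32 of 12323 genes (0.26%) were called, since Wnt6 was then not tested. At 1.5-fold 4 of 32 members were called, Lgr6, Rspo2, Wnt4 and Wnt6, against 489 of 14251 genes (3.43%). These 4 members all lay toward replicate 2, but the genes called at this threshold were not divided by direction. For the annotations, Lrp6 was the member called except at 2-fold, where 0 members and 248 genes in place of 592 were called. Members with at least 2 transcripts at 10% were 4, and 8 with posterior mean TPM and 8 to 10 with a library left out, where only one library has to pass. Of 667 alternative values 583 were alike, 80 moved, 1 lost and 3 gained a call, and 0 changed sign past the threshold. A level, class sum or transcript share moved if it changed by more than the SD of the replicates. A count of members or genes moved if it changed past 1.5-fold, and other values had other rules. With 2 replicates, leaving 1 out always keeps a level, sum or share within that SD, so these were alike by construction. No paired analysis was possible because there is a single group. With 2 pools, 12 members under 10 counts on average have levels that counting error alone could set in a wide range.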
